A study of Rattus norvegicus with 8 samples.

Results

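Intercalated disc junction genes were described in rat heart muscle cells after knockdown of Echs1, as the 10 rows of the deposited FPKM table (reads per library total, divided by gene length) that carry the name of a connexin (Gja1, Gja5, Gjc1), a desmosome gene (Dsp, Pkp2, Jup, Dsg2, Dsc2) or a Xin repeat gene (Xirp1, Xirp2). All 10 names were found, each in 1 row of 21017, and 9 passed the filter of a mean of at least 1 FPKM that 12616 rows passed. The cells were cardiomyocytes of newborn SD rats, 4 libraries from cells transfected with siECHS1 and 4 from cells transfected with the control siNC, all taken at 48 h. Whether each replicate was its own culture or litter is not in the labels, so every p-value rests on the spread among 4 libraries a group, which may be technical. No protein, junction or conduction measurement was analysed here.

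The intercalated disc is the end-to-end contact between heart muscle cells. Gap junctions, channels built of connexins, pass ions and so the electrical impulse from cell to cell. Desmosomes tie the intermediate filaments of neighbouring cells together through desmosomal cadherins (desmoglein and desmocollin), which bind plakoglobin and plakophilin inside the cell and, through them, desmoplakin. Inherited mutations in desmosome genes are a known cause of arrhythmogenic cardiomyopathy. Xin repeat proteins bind actin and sit at the adherens junctions of the disc, where thin filaments end.

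The transcript of the targeted gene, which encodes a mitochondrial enoyl-CoA hydratase of fatty acid and valine breakdown, was lower in every siECHS1 library. The row named Echs1 had 0.670, 0.444, 0.424 and 0.525 FPKM in the siECHS1 libraries, against 1.66, 1.35, 1.18 and 1.12 FPKM in the siNC libraries. An exact permutation test, two-sided, put the difference at p = 0.0286, which no split of 4 and 4 libraries can go below, on 55 reads in siECHS1 and 138 in siNC. The row overlaps the gene Zfp710, and LOC100911186, a row with the same protein match, fell to 3.38 ± 0.385 FPKM in siECHS1, against 6.61 ± 0.782 FPKM in siNC (SD, n = 4 each; limma adjusted p = 0.000272). Library totals lay between 16953309 and 18237111 reads. Single members rested on 102 to 8834 reads per library, with Xirp2 at the low end and Jup at the high end, and no member overlapped another listed gene or shared its best protein match with one.

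Junction genes changed by small amounts. Xirp1, Gja5, Dsc2 and Pkp2 rose in siECHS1 cells and Gja1 fell, while Jup, Dsp, Dsg2 and Gjc1 did not pass the test. Of the 9 members tested by limma on log2(FPKM + 1), 5 passed an adjusted p of 0.05, 4 upward and 1 downward. Without siECHS1 replicate 1 or 2, or siNC replicate 1 or 2, 3 members passed. The number that fell, Gja1 alone, was 0 when siECHS1 replicate 1, 2, 3 or 4 or siNC replicate 1, 2 or 3 was left out singly. It was also 0 under median-of-ratios scaling, without a variance trend and with no filter on low values. Among all genes tested 21.0% passed, 8.83% upward and 12.2% downward, and 25.2% passed among the genes that average 5 FPKM or more, as all 9 do. The median log2 change was 0.13 over the 9 members and -0.01 over all genes tested. The values of the groups did not overlap in 6 of the 9 members, against 25.2% of all genes tested. In 4 of these siECHS1 was higher, as in 10.3% of all genes, and in 2 it was lower, as in 14.9%. The members were chosen with earlier results of these data known, so these counts are no independent test of the set. In RNA of a whole culture, a change in the number of cells of a type cannot be told apart from a change in RNA per cell.

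**Figure D1:**
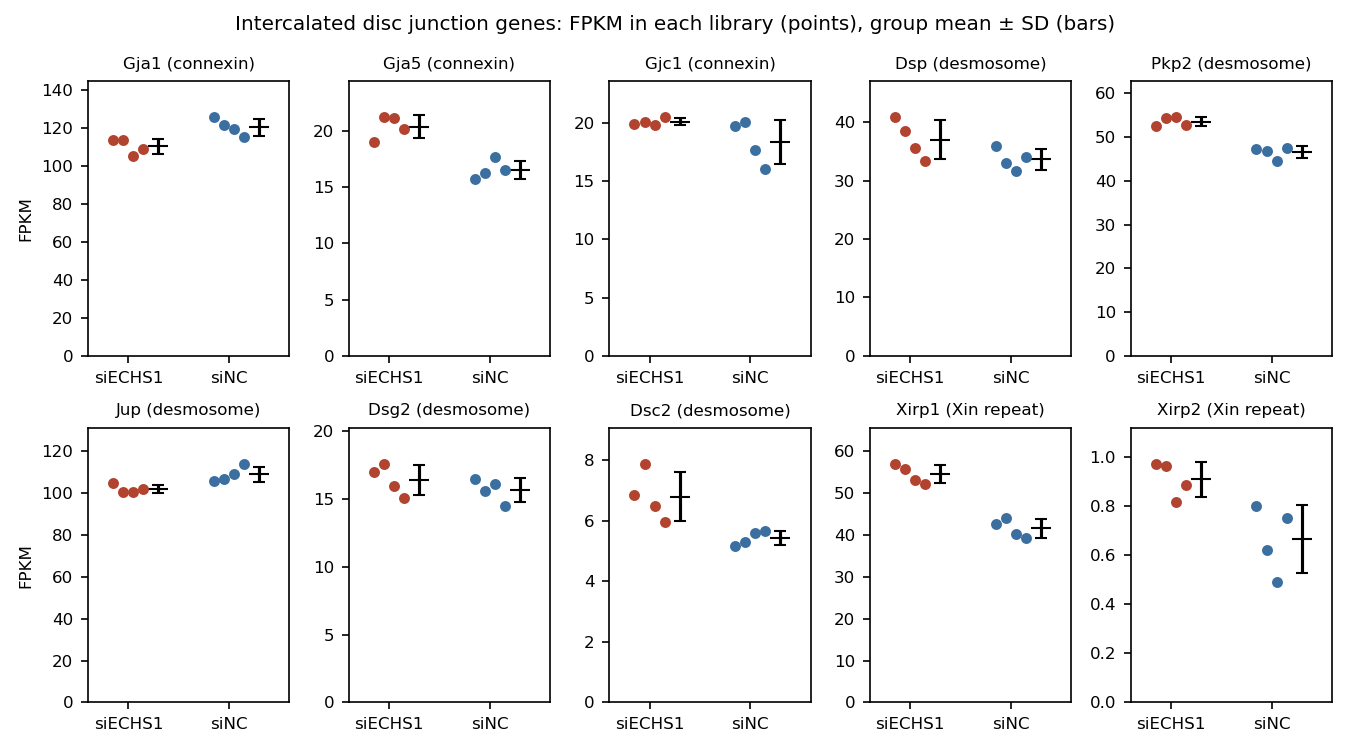
FPKM of the 10 junction genes in each of 4 siECHS1 libraries (red, left) and 4 siNC libraries (blue, right), with the group mean and SD in black and every axis starting at 0. The groups stand apart for Gja5, Pkp2, Dsc2, Xirp1 and Xirp2 (siECHS1 higher) and for Gja1 and Jup (siECHS1 lower), and overlap for Gjc1, Dsp and Dsg2.

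FPKM divides by gene length, so levels can be set side by side. In siECHS1 cells the order was Gja1 (110.2 FPKM), Jup (102.0), Xirp1 (54.5), Pkp2 (53.5), Dsp (37.0), Gja5 (20.4), Gjc1 (20.05), Dsg2 (16.4), Dsc2 (6.79) and Xirp2 (0.908). In siNC cells it was Gja1 (120.1 FPKM), Jup (108.9), Pkp2 (46.5), Xirp1 (41.5), Dsp (33.6), Gjc1 (18.3), Gja5 (16.6), Dsg2 (15.7), Dsc2 (5.43) and Xirp2 (0.665). Each order had neighbours whose values overlapped: Xirp1 with Pkp2 and Gja5 with Gjc1 in siECHS1 cells, Gjc1 with Gja5 and Gja5 with Dsg2 in siNC cells. Pkp2 lay above Xirp1 in all 4 siNC libraries and in 2 of the 4 siECHS1 libraries.

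The stretch around the start of transcription is shown for the connexins that moved in opposite directions and for the 2 Xin repeat genes. The sequences come from RefSeq on the rat build GRCr8, 250 bases before to 50 after the annotated start, on the strand of the gene. A promoter was listed for 8 of the 10 members, all but Gjc1 and Pkp2, and the first listed of 3 entries is shown for Xirp1. They were searched on both strands for AP-1 (letters TGANTCA), the GATA motif (letters AGATAA), the TATA box (letters TATAAA), MEF2 and the CArG box, the site of serum response factor. Capitals mark every match:
Gja1, chr20:36302314-36302613, plus strand: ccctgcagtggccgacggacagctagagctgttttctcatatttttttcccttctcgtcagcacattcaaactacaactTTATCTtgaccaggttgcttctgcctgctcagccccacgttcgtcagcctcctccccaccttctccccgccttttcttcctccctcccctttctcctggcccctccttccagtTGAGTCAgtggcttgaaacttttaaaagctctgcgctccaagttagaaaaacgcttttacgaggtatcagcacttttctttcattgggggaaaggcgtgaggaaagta
Gja5, chr2:187290977-187291276, plus strand: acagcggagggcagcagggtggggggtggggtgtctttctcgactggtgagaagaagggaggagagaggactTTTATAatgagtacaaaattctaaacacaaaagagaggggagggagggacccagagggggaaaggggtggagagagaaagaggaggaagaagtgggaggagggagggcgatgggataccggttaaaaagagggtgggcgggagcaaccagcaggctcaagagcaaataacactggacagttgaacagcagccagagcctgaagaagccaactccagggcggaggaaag
Xirp1, chr8:128634962-128635261, minus strand: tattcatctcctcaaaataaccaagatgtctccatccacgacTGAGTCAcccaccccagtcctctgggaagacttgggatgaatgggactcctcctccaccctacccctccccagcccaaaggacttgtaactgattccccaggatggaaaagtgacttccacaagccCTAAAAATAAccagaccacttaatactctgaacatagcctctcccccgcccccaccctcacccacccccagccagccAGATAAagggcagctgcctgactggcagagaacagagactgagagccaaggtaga
Xirp2, chr3:72533936-72534235, plus strand: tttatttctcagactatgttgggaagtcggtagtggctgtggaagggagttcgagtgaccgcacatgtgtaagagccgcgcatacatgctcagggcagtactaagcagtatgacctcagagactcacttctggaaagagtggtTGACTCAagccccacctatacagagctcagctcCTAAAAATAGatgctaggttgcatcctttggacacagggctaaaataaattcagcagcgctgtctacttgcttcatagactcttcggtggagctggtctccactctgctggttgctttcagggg
An AP-1 match began 58 bases before the start of Gja1, 208 before that of Xirp1 and 107 before that of Xirp2, and 7.33% of all 33469 listed promoters hold one. A MEF2 match began 82 bases before the start of Xirp1 and 74 before that of Xirp2, and 3.29% of promoters hold one. Gja1 held a GATA match on the other strand 171 bases before its start and Xirp1 one 5 bases before (11.6% of promoters), and Gja5 held a TATA match 178 bases before, also on the other strand (14.2%). No match overlapped another. The other 4 promoters, those of Dsp, Jup, Dsg2 and Dsc2, held no match to these motifs, nor did the third entry of Xirp1, and no member held a CArG box (1.64% of promoters). A match is a run of letters, and binding was not measured here.

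The connexins split. Gja5, the connexin of atrial muscle, the fast conduction system and arterial endothelium, rose, and Gja1, the main gap junction protein of working ventricular muscle, fell slightly. Gja5 (ENSRNOG00000017484, chromosome 2, 199162745 to 199184939 as the table lists it) had 19.0, 21.2, 21.1 and 20.2 FPKM in the siECHS1 libraries, against 15.8, 16.3, 17.7 and 16.6 FPKM in the siNC libraries. Every siECHS1 library lay above every siNC library, and the mean of 20.4 ± 1.04 FPKM in siECHS1 was 23.0% above that of 16.6 ± 0.802 FPKM in siNC (SD, n = 4 each). The log2 change was 0.28 (SE 0.05, 95% interval 0.17 to 0.39, limma adjusted p = 0.00311), and the call held under all 17 alternatives.

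Gja1 (ENSRNOG00000000805, chromosome 20, 37876650 to 37889089) had 113.3, 113.6, 105.3 and 108.6 FPKM in the siECHS1 libraries, against 125.4, 121.1, 119.2 and 114.9 FPKM in the siNC libraries. The lowest siNC library, replicate 4, lay just above the highest siECHS1 library. Means were 110.2 ± 4.00 FPKM in siECHS1 and 120.1 ± 4.36 FPKM in siNC (SD, n = 4 each), and the log2 change was -0.12 (SE 0.04, 95% interval -0.21 to -0.04, limma adjusted p = 0.0434). This call was fragile. It held under 7 of 17 alternatives, over which the limma adjusted p ranged from 0.0246 to 0.110. It was lost without siECHS1 replicate 1 (0.0564), 2 (0.0583), 3 (0.110) or 4 (0.0725), without siNC replicate 1 (0.0920), 2 (0.0957) or 3 (0.0823), under median-of-ratios scaling (0.0643), with no filter on low values (0.0664) and without a variance trend (0.0861). The direction was the same under all 17.

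Gjc1, the connexin of the early heart tube and the nodes (ENSRNOG00000048838, chromosome 10, 90781402 to 90912287), lay between 19.7 and 20.5 FPKM in siECHS1 and between 16.0 and 20.01 FPKM in siNC. The groups overlapped, with siNC replicates 3 and 4 low and replicates 1 and 2 near the siECHS1 values. The log2 change of 0.13 (95% interval -0.01 to 0.27) did not pass (limma adjusted p = 0.188).

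Within a library, Gja1 made up 74.4%, 73.3%, 72.0% and 72.8% of the summed FPKM of the 3 connexins in siECHS1, against 78.0%, 77.0%, 77.1% and 77.9% in siNC. Gja5 made up 13.5% ± 0.814 in siECHS1 and 10.7% ± 0.765 in siNC, and Gjc1 13.3% ± 0.349 in siECHS1 and 11.8% ± 0.824 in siNC (SD, n = 4 each). The Gja1 to Gja5 ratio was 5.42 ± 0.405 in siECHS1 and 7.27 ± 0.542 in siNC. The groups did not overlap in these shares or in the ratio, for which no test is given. Since Gja1 was lower and Gja5 higher in every siECHS1 library, the ratio had to stand apart. The summed level of the 3 connexins was 150.6 ± 3.77 FPKM in siECHS1 and 155.0 ± 5.68 FPKM in siNC, and there the groups overlapped. These 3 genes held 87.4% ± 0.814 of the FPKM of all 19 connexin rows in siECHS1 and 87.6% ± 1.09 in siNC.

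**Figure D2:**
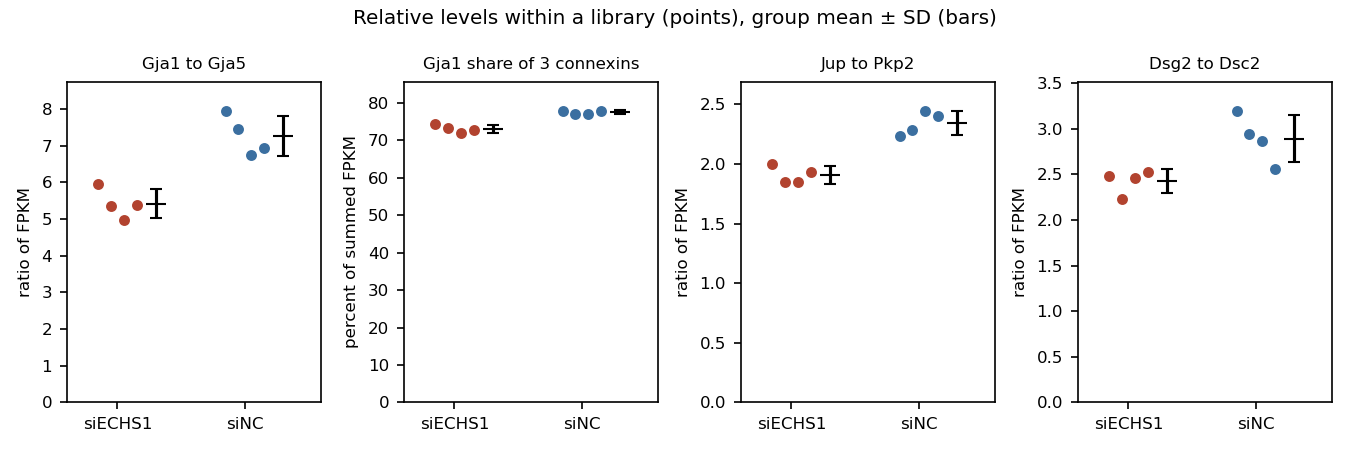
Ratios of FPKM within each library, and the share of Gja1 among the 3 connexins in percent, for siECHS1 (red, left) and siNC (blue, right), with group mean and SD in black and axes from 0. Gja1 to Gja5, Jup to Pkp2 and Dsg2 to Dsc2 were all lower in each siECHS1 library than in any siNC library. For Gja1 to Gja5 and Jup to Pkp2 this follows from the values of each gene alone.

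Among the desmosome transcripts a plakophilin and a cadherin rose, and the others did not pass. Pkp2, the cardiac plakophilin (ENSRNOG00000001825, chromosome 11, 88912599 to 88972176), had 52.5, 54.3, 54.5 and 52.7 FPKM in the siECHS1 libraries, against 47.4, 46.8, 44.5 and 47.4 FPKM in the siNC libraries. The groups lay well apart, with a spread of 1.99% of the mean in siECHS1 and 2.97% in siNC. The mean of 53.5 ± 1.07 FPKM in siECHS1 was 15.03% above that of 46.5 ± 1.38 FPKM in siNC (SD, n = 4 each), with a log2 change of 0.20 (SE 0.03, limma adjusted p = 0.00285), and the call held under all 17 alternatives.

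Dsc2, the desmocollin of the heart (ENSRNOG00000039969, chromosome 18, 11826706 to 11858754), had 6.85, 7.87, 6.48 and 5.96 FPKM in the siECHS1 libraries, against 5.16, 5.30, 5.61 and 5.65 FPKM in the siNC libraries. Replicate 2 was the highest siECHS1 library and replicate 4 lay close to siNC. Means of 6.79 ± 0.811 FPKM in siECHS1 and 5.43 ± 0.238 FPKM in siNC (SD, n = 4 each) gave a log2 change of 0.27 (SE 0.08, limma adjusted p = 0.0277). The call was lost without siECHS1 replicate 1 (limma adjusted p = 0.0648) or 2 (0.0664), without siNC replicate 1 (0.0585) or 2 (0.0650) and with no filter on low values (0.0612), within a range from 0.00866 to 0.0664 over 17 alternatives.

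Jup, which encodes plakoglobin (ENSRNOG00000015380, chromosome 10, 88279632 to 88307412), was the one desmosome gene among the members with lower values. It had 104.9, 100.5, 100.7 and 101.8 FPKM in the siECHS1 libraries, against 105.9, 106.9, 108.9 and 113.9 FPKM in the siNC libraries. The groups did not overlap, but siECHS1 replicate 1 came close to siNC replicate 1. The log2 change of -0.09 (SE 0.03, 95% interval -0.17 to -0.02) did not pass the adjusted threshold (limma adjusted p = 0.0731, unadjusted p = 0.0185), nor did it under any of the 17 alternatives.

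Dsp, which encodes desmoplakin, the link to desmin filaments (ENSRNOG00000013928, chromosome 17, 27286796 to 27334379), lay between 33.3 and 40.8 FPKM in siECHS1 and between 31.6 and 35.9 FPKM in siNC. Its groups overlapped and siECHS1 replicate 1 was the highest of the 8 libraries. The log2 change was 0.13 (95% interval -0.01 to 0.27, limma adjusted p = 0.168). Dsg2, the desmoglein of the heart and the partner of Dsc2 across the junction (ENSRNOG00000016526, chromosome 18, 15579315 to 15637715), lay between 15.04 and 17.6 FPKM in siECHS1 and between 14.5 and 16.5 FPKM in siNC. Its groups overlapped too, with a log2 change of 0.06 (95% interval -0.07 to 0.19, limma adjusted p = 0.501). For Dsp and Dsg2 the intervals leave room for changes in either direction. They also overlap the intervals of Pkp2 (0.12 to 0.27) and Dsc2 (0.11 to 0.44), and a difference between called and uncalled genes was not tested.

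The relative levels of desmosome transcripts stood apart between the groups. The Jup to Pkp2 ratio was 2.00, 1.85, 1.85 and 1.93 in the siECHS1 libraries, against 2.24, 2.28, 2.45 and 2.40 in the siNC libraries. The Dsg2 to Dsc2 ratio was 2.48, 2.23, 2.46 and 2.53 in the siECHS1 libraries, against 3.20, 2.94, 2.87 and 2.56 in the siNC libraries, where replicate 4 lay close to siECHS1. The summed level of the 5 genes was 215.7 ± 5.89 FPKM in siECHS1 and 210.2 ± 3.98 FPKM in siNC (SD, n = 4 each), with overlapping groups. In siECHS1 every Jup value was lower and every Pkp2 value higher, so their ratio had to stand apart and adds nothing to the values of both genes. No test is given for these ratios and sums.

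Xirp1, the shorter of the 2 Xin repeat genes and an actin-binding protein of the disc (ENSRNOG00000037085, chromosome 8, 128702133 to 128711221), showed the largest log2 change of the 9 tested members. It had 57.0, 55.8, 53.2 and 52.2 FPKM in the siECHS1 libraries, against 42.7, 44.0, 40.2 and 39.2 FPKM in the siNC libraries. Every siECHS1 library stood far above the highest siNC library, with means of 54.5 ± 2.20 FPKM in siECHS1 and 41.5 ± 2.21 FPKM in siNC (SD, n = 4 each). The log2 change was 0.39 (SE 0.05, 95% interval 0.28 to 0.49, limma adjusted p = 0.00035), a ratio of means of 1.31, and the call held under all 17 alternatives.

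Xirp2, which encodes the larger relative of Xirp1 (ENSRNOG00000034258, chromosome 3, 53563194 to 53658132), was low in FPKM and lay below the filter. It had 0.971, 0.960, 0.816 and 0.885 FPKM in the siECHS1 libraries, against 0.801, 0.618, 0.491 and 0.751 FPKM in the siNC libraries. These rest on 173 to 213 reads per siECHS1 library and 102 to 177 per siNC library. The groups did not overlap, with siECHS1 replicate 3 and siNC replicate 1 nearly meeting. In the fit without the filter the log2 change was 0.20 (SE 0.07, 95% interval 0.04 to 0.36), and the limma adjusted p of 0.123 over 21017 genes did not pass. The ratio of means was 1.36, against 1.31 for Xirp1, as log2(FPKM + 1) understates changes at this level. The Xirp1 to Xirp2 ratio was 60.2 ± 3.29 in siECHS1 and 64.6 ± 14.4 in siNC, with overlapping groups, so that the size of the change cannot be told apart between the 2 genes from these ratios.

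**Figure D3:**
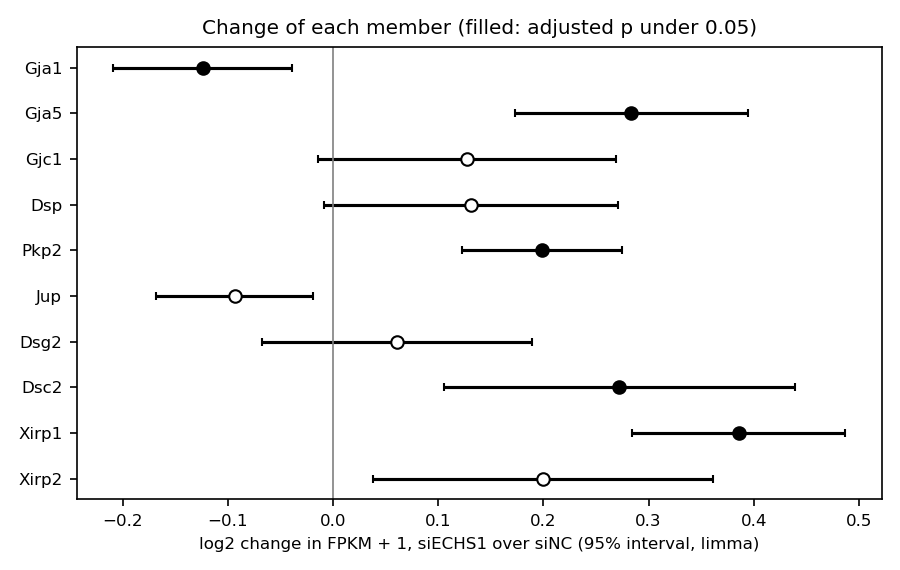
Log2 change in FPKM + 1 of each member, siECHS1 over siNC, with its 95% interval from limma, filled where the adjusted p is under 0.05. The value of Xirp2 comes from the fit without the filter, where it lies at 0.20 on a scale that understates changes of low genes. Gja1 is the filled point below 0.

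Other genes of the disc moved both ways. Of 65 tested rows in 5 lists of further junction genes, 15 rose and 14 fell, with a median log2 change of 0.02. Over all genes tested 8.83% rose and 12.2% fell, the shares to hold beside this count and those of each list below. The lists were chosen with earlier results of these data known. Without siECHS1 replicate 1 or 2 or siNC replicate 4 the number that rose was 8, 9 and 8, in that order. Rows that the deposited table annotates to the intercalated disc gave 12 risen and 6 fallen of 38 tested. The members among these held 4 of the rises (Gja5, Pkp2, Dsc2, Xirp1) and the other 32 tested rows 8 rises and 6 falls.

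Among the adherens junction genes, 3 of 16 tested rows rose and 5 fell. Cdh2, which encodes N-cadherin, the classical cadherin of the disc, rose to 133.3 ± 6.39 FPKM in siECHS1, against 113.1 ± 5.22 FPKM in siNC (SD, n = 4 each; log2 change 0.24). Both rows named Ctnna3, the catenin that ties plakophilin to the adherens junction, rose by similar amounts (4.24 ± 0.660 and 3.21 ± 0.539 FPKM in siECHS1, against 2.99 ± 0.489 and 2.21 ± 0.273 FPKM in siNC). They lie apart on chromosome 20, the second of them over Tmem167b, and the way reads were shared out between them is not known here. Arvcf, a catenin that binds classical cadherins, fell to 7.68 ± 0.229 FPKM in siECHS1, against 9.75 ± 0.355 FPKM in siNC. Vcl, which encodes the actin linker vinculin, fell by 0.23 on the log2 scale, and the other 3 rows that fell were Ctnnd1, Nectin2 and Tln1, of which Tln1 overlaps Creb3. The call of the first Ctnna3 row was lost without siECHS1 replicate 1 or 2 or siNC replicate 2, 3 or 4, and that of the second without siECHS1 replicate 1 or 3 or siNC replicate 2 or 4 (limma adjusted p up to 0.0797 and 0.0651), and both also with no filter on low values.

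Of the further desmosome and desmosome-linked genes, 6 of 13 were tested, 1 rose and 2 fell. Pkp1, a plakophilin best known from skin, fell to 8.48 ± 0.288 FPKM in siECHS1, against 10.6 ± 0.537 FPKM in siNC (log2 change -0.30, limma adjusted p = 0.00264), the opposite direction to Pkp2. Perp, a tetraspan membrane protein of desmosomes, rose to 24.4 ± 1.596 FPKM in siECHS1, against 18.4 ± 1.21 FPKM in siNC (SD, n = 4 each). Tmem43, a nuclear envelope protein tied to arrhythmogenic cardiomyopathy, fell by 0.15 on the log2 scale. Pkp4 (15.3 and 16.4 FPKM, siECHS1 and siNC) and the desmocollin Dsc3 (1.71 and 1.49 FPKM, siECHS1 and siNC) did not pass, and Dsc1, Dsg1, Dsg3, Dsg4 and Pkp3 lay at or below 0.103 FPKM in both groups.

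Of 19 further connexin and pannexin rows, 7 were tested. Panx2, a pannexin channel gene, rose to 3.07 ± 0.144 FPKM in siECHS1, against 1.69 ± 0.275 FPKM in siNC (log2 change 0.60, limma adjusted p = 0.00096), and by limma 0 fell, also at an unadjusted p under 0.05 and by voom on reads recovered from the FPKM. Gja3 (4.92 and 5.45 FPKM, siECHS1 and siNC) and Gja4, the connexin of arterial endothelium (2.07 and 2.28 FPKM, siECHS1 and siNC) did not pass, nor did the other 4. Gja10 and Gjc3 lay below 1 FPKM.

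Among 18 Xin partners and linkers between disc and myofibril, 6 rose and 2 fell. Enah, an actin regulator that binds Xin, rose to 71.3 ± 4.88 FPKM in siECHS1, against 53.5 ± 3.48 FPKM in siNC, and the muscle LIM protein gene Csrp3 to 230.7 ± 11.5 FPKM in siECHS1, against 191.2 ± 4.08 FPKM in siNC. Ldb3 and Pdlim3, PDZ and LIM domain proteins of the Z-disc, fell by 0.30 and 0.23 on the log2 scale.

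Of 18 tested connexin partners and membrane scaffold genes, 4 rose and 5 fell. Cxadr, the coxsackie and adenovirus receptor of the disc, rose to 11.5 ± 0.995 FPKM in siECHS1, against 8.83 ± 1.18 FPKM in siNC, with overlapping groups. Its call was lost without siECHS1 replicate 1 or 2 or siNC replicate 3 or 4 (limma adjusted p up to 0.0583) and with no filter on low values. Cav3 and Popdc2, membrane proteins of muscle, fell by 0.27 and 0.26 on the log2 scale.

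Of 17 transcription factors known to act on connexin or desmosome genes, 1 rose and 5 fell. Tbx3, a repressor of Gja1 and Gja5 in the conduction system, fell to 3.71 ± 0.255 FPKM in siECHS1, against 4.85 ± 0.277 FPKM in siNC. Hopx fell to 24.3 ± 1.94 FPKM in siECHS1, against 30.3 ± 1.77 FPKM in siNC, and Gata4 to 114.7 ± 1.17 FPKM in siECHS1, against 134.9 ± 6.23 FPKM in siNC. The other 2 that fell were Tbx5, an activator of Gja5, and Mef2d. Snai1, a repressor of cadherin genes, rose to 16.0 ± 1.40 FPKM in siECHS1, against 12.97 ± 1.55 FPKM in siNC, a call lost without siECHS1 replicate 2 or 3 or siNC replicate 1, 2 or 3, with no filter, without a variance trend and with a replicate block (limma adjusted p up to 0.0961).

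**Figure D4:**
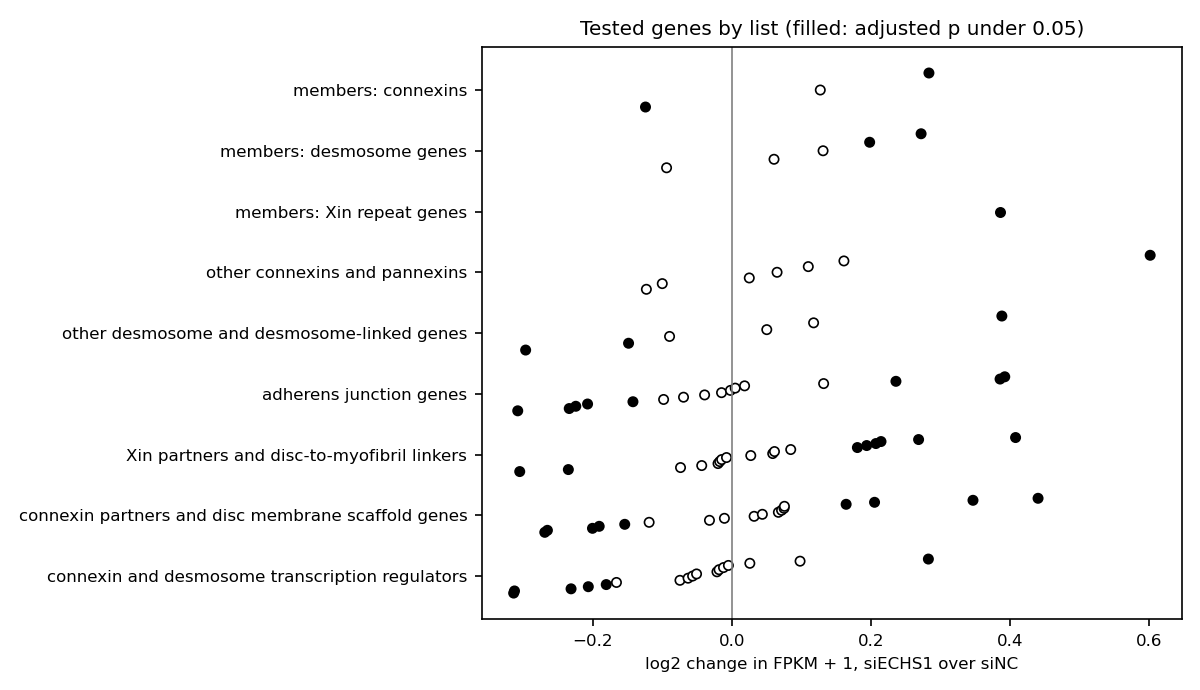
Log2 change in FPKM + 1, siECHS1 over siNC, of every tested gene in the member classes and in the lists of other junction genes and regulators, 1 point per row, filled where the adjusted p is under 0.05. Filled points lie on both sides of 0 in every list but those of the Xin repeat genes, the desmosome members and the other connexins and pannexins.

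Several members are expressed by more than heart muscle cells, so marker genes of other cell types are set beside them. Over all 12616 genes tested, limma called 1114 rises (8.83%) and 1541 falls (12.2%), and voom 1249 and 1699. At an unadjusted p under 0.05 by limma, 1844 of these genes were higher and 2506 lower. All 10 cardiomyocyte markers were tested, 2 rose and 2 fell, and their summed level lay between 8763 and 9613 FPKM in siECHS1 and between 8598 and 8890 FPKM in siNC. Of 9 tested fibroblast markers, whose cells also make Gja1 and Cdh2, 5 rose and 1 fell, and the sum was 4585 to 5113 FPKM in siECHS1, against 3650 to 3894 FPKM in siNC. Of 8 tested endothelial markers 0 were called by limma, with 1 higher and 0 lower at an unadjusted p under 0.05, while voom called 0 rises and 1 fall, and sums were 222.5 to 238.6 FPKM in siECHS1 and 211.3 to 227.0 FPKM in siNC. Of 5 tested arterial endothelial markers, beside which Gja5 stands, 0 rose and 1 fell by limma (2 higher at an unadjusted p under 0.05, and 1 rise by voom), with sums of 164.8 to 177.6 FPKM in siECHS1 and 155.5 to 168.3 FPKM in siNC. Of 9 tested epicardial and mesothelial markers, an epithelium that also makes Dsp and Jup, 1 rose and 1 fell, with sums of 101.4 to 109.7 FPKM in siECHS1 and 96.7 to 102.7 FPKM in siNC. Of 6 tested conduction cell markers 0 rose, also at an unadjusted p under 0.05 and by voom, and 1, Tbx3, fell, with sums of 68.4 to 72.5 FPKM in siECHS1 and 69.1 to 78.9 FPKM in siNC. Of 10 tested smooth muscle markers 2 rose and 1 fell (5162 to 5607 FPKM in siECHS1, 5277 to 5490 FPKM in siNC). That list holds Des (1042 and 1006 FPKM, siECHS1 and siNC), the gene of the desmin filaments that Dsp links to. It also holds Tagln, whose row overlaps Sidt2, so the sum does not track smooth muscle cells alone. Of 4 tested macrophage markers 1 rose and 1 fell (29.98 to 34.4 and 31.0 to 32.1 FPKM, siECHS1 and siNC). Of 5 tested Schwann and neural markers limma and voom called 0, with 1 higher and 1 lower at an unadjusted p under 0.05 (226.8 to 233.6 and 228.4 to 244.3 FPKM, siECHS1 and siNC). The 1 tested erythroid marker was called by neither and lay above that p. With 2 further erythroid rows below the filter, the sum was lower, at 0.993 to 1.23 FPKM in siECHS1, against 1.73 to 2.14 FPKM in siNC. No listed marker was at 0 in all libraries. The part of these cell types in the members' results was not tested.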

How the data were processed

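RNA of 8 cardiomyocyte samples was sequenced, 4 siECHS1 and 4 siNC. Per the labels' protocols, libraries were made with Illumina's TruSeq RNA kit. The authors deposited FPKM, 1 column per library. The submitters' processing notes name Bowtie 0.12.2, Rnor_6.0 and mm8, but not what each served for. How reads were counted, on which strand, and what became of reads with several matches is not given in these sources, and coordinates are those of the table, whose header names no build.

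Values were taken as log2(FPKM + 1), a scale that understates changes of low genes, and rows with a mean of at least 1 FPKM were kept. The groups were compared, siECHS1 over siNC, with limma 3.58.1 (R 4.3.3, eBayes with trend). Tests were two-sided, and p-values were adjusted by Benjamini-Hochberg across 12616 rows, with a threshold of 0.05. Whole reads were recovered from the steps of the FPKM values (100% of rows within 0.01 of a read) and used for depth and, as an alternative, for limma's voom. Both steps were tested on simulated data. Replicates of a group differed by more than counting noise (chi-square per degree of freedom from 2.56 to 6.02).

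The members and lists were chosen with earlier results of these data known. All members are named, and of each list of other genes the at most 4 largest called changes and relatives of a member by name. Vcl, Ctnnd1, Nectin2, Tln1, Tbx5 and Mef2d are outside this rule and were named after their values were seen. Some genes that this rule would name are not reported here. Alternatives were the pseudocount, the filter, scaling, the variance model, a replicate block and leaving out each library. Python 3.11.15 was used for tables and figures.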

Additional observations from a re-analysis of the deposited data

Results flagged for a closer look

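Among 72 groups of 4 values (36 named genes in siECHS1 and in siNC), 5 held a library whose distance from the nearest of the others was a large share of the whole range. Chance gives about 1 in 20 such groups, and 0 of the 5 were members.

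Pdlim3 had 91.5 FPKM in siECHS1 replicate 4, against 80.7 to 82.5 FPKM in the other siECHS1 libraries. Tbx3 had 3.33 FPKM in siECHS1 replicate 4, against 3.79 to 3.86 FPKM in the others. Dsc3, a desmocollin gene near the filter, had 2.04 FPKM in siECHS1 replicate 2, against 1.57 to 1.63 FPKM in the others. Popdc2 had 172.0 FPKM in siNC replicate 2, against 166.6 to 167.3 FPKM in the other siNC libraries. Gata4 had 144.2 FPKM in siNC replicate 4, against 130.9 to 132.5 FPKM in the others.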

How the results depend on the processing

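Over the alternatives, 152 of 167 recomputed member values kept their direction and side of the threshold, 15 fell short of it (10 of Gja1, 5 of Dsc2) and 0 reversed. Gjc1, Dsp, Jup, Dsg2 and Xirp2 were not called in the main fit, so their values could not fall short. Each called member had 17 alternatives. Of 402 values of other named genes 24 fell short and 0 reversed, where those of Gja3, Gja4, Pkp4 and Dsc3, not called, could not fall short. The number of members changed was 3 with no filter on low values, and 3 to 5 when single libraries were left out. The number fallen was 0 without a variance trend, under median-of-ratios scaling and with no filter, and 0 to 1 when single libraries were left out. Of the other junction genes 9 rose with no filter, and 8 to 15 when single libraries were left out. The cause was not tested. With voom on recovered reads, chosen after seeing the data, 2948 genes were called.

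Whether same replicate numbers pair the libraries is not in the labels, and the values do not settle it. Correlations of their deviations were 0.17, -0.05, 0.0072 and 0.075 for replicates 1 to 4, against -0.15 to 0.10 for unlike numbers. The second principal component (13.7% of the variance) fell from replicate 1 to 4 in both groups, from 7.39 to -10.3 in siECHS1 and from 10.7 to -6.88 in siNC. The cause of that order was not tested. With the replicate as a block 5 members changed, 4 risen and 1 fallen, as without it, 2952 genes were called in place of 2655, and the call of Snai1 was lost.

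Xirp2 rested on 102 to 213 reads per library, and its change did not pass under any alternative. The cause was not tested.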
